A study of Mus musculus with 8 samples.

Results

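Integrins are surface receptors built from 1 alpha and 1 beta subunit, and a T cell uses them to hold on to vessel walls, antigen-presenting cells and matrix. The 10 integrin subunit genes described here, of 39056 genes in the count table, were taken by name: Itgal, Itgb2, Itga4, Itgb1, Itgb7, Itga6, Itgae, Itga9, Itgav and Itgb8. Their rows were found through the mouse GENCODE M21 annotation, each by exactly 1 match, and they are described by the alpha-beta pairs their products form. Counts were compared between CD4+ T cells of 2 clones, SAS and ANT, with 4 libraries each (SAS replicates 1, 2, 3 and 6, ANT replicates 1, 3, 4 and 5). Both groups had the genotype CD4-Cre TCRβtg Tcra-/- on C57BL/6J, with a transgenic beta chain of the T cell receptor (TCR), no endogenous Tcra and a Cre transgene, and the groups differed in the SAS or ANT TCRα that a retrovirus had brought into the bone marrow inoculum. Such cells come from reconstituted mice, so a transgenic beta chain and a viral alpha chain take the place of a normal repertoire, and each group stands for 1 receptor. Cells were sorted from spleen and lymph nodes that had been combined. The age of the mice is not given in the sources used here. The series title is about self-reactive CD4+ clones of a T follicular helper-like kind.

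An integrin reaches the cell surface as a dimer of both subunits, and 1 beta chain can serve several alpha chains. The beta2 chain pairs with alphaL to form LFA-1, the receptor for ICAM proteins that holds the immunological synapse together. The alpha4 chain pairs with beta1 to bind VCAM-1 or with beta7 to bind the gut addressin MAdCAM-1, and beta7 also pairs with alphaE, the CD103 chain that binds E-cadherin. The beta1 chain further pairs with alpha6, a laminin receptor, and with alpha9, a receptor for several matrix proteins. The alphaV chain pairs with several beta chains, among them beta8, a dimer known for freeing active TGF-beta from its latent form. Talin, the protein that switches most integrins on from inside the cell, binds the beta chain at an NPxY-type motif (asparagine, proline, any residue, then tyrosine or phenylalanine) in the short cytoplasmic tail.

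The tails of the beta chains are shown first because they separate the beta gene that differed most between the clones from the others. Each line holds the last 120 coding bases before the stop codon, 40 codons, 5′ to 3′ on the coding strand, from the GENCODE M21 transcripts of mm10, with the codons of an NPxY-type motif in capitals. The stretch lies at chr12:119163120-119163239 (minus strand) for Itgb8, chr8:128726130-128732085 (plus) for Itgb1, chr10:77564745-77565237 (plus) for Itgb2, chr15:102216163-102216486 (minus) for Itgb7 and chr11:104665576-104667142 (plus) for Itgb3. It is in 1 exon in Itgb8 and split over 2 exons in each of the other genes. Itgb3, which is no member, is included as another partner of alphaV.
Itgb8: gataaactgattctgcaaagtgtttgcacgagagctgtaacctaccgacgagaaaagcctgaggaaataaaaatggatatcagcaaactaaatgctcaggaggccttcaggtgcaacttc
Itgb1: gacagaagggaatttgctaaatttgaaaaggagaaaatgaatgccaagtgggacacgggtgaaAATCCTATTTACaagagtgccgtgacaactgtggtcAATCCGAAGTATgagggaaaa
Itgb2: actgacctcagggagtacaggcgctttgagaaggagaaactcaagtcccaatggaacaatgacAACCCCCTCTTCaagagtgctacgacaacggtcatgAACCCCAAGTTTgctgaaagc
Itgb7: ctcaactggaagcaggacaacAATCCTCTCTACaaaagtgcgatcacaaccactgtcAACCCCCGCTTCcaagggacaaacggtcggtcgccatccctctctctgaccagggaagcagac
Itgb3: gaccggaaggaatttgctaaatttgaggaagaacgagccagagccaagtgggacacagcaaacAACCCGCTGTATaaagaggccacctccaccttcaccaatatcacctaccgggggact
The tails of Itgb1, Itgb2 and Itgb7 each held 2 such motifs, and that of Itgb3 held 1. The tail of Itgb8 held 0 in this window. Besides its motif, the Itgb3 tail held 1 stretch with asparagine and tyrosine at the same spacing but no proline, left in small letters.

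The libraries held 27600959 to 31810799 counts. On the first principal component, with 72.6% of the variance in log2(CPM + 1), where CPM is counts per 1e6 after TMM scaling, the clones separated, and the second, with 13.7%, split each clone. SAS replicates 1 and 6 scored 18.9 and 7.73 there, like ANT replicates 1 and 3 (21.1 and 20.8). SAS replicates 2 and 3 scored -16.9 and -5.39, on the side of ANT replicates 4 and 5 (-21.3 and -24.9). The T cell markers were abundant in all libraries, with Cd4 at 907 ± 66.6 CPM in SAS, against 936 ± 59.8 CPM in ANT (SD, n = 4 each, as for all means here). The 9 T cell markers summed to 4845 to 5267 CPM in SAS and 5529 to 6508 CPM in ANT. Thy1 differed most among them, at 248 ± 35.3 CPM in SAS, against 917 ± 91.7 CPM in ANT. Lat was also lower in every SAS library (528 ± 61.5 CPM, against 722 ± 58.6 CPM in ANT). Cd28 was higher in every SAS library (727 ± 89.0 CPM, against 434 ± 72.7 CPM in ANT). The libraries of the other T cell markers overlapped between the clones. Platelet markers summed to at most 0.069 CPM in SAS, against 0.110 CPM in ANT, with Gp9 at 0 in every library, and natural killer markers to at most 1.05 CPM in SAS, against 0.103 CPM in ANT, with Ncr1, Klra8 and Klre1 at 0 and the rest Klrb1c. Myeloid markers summed to 3.38 to 9.01 CPM in SAS and 4.19 to 7.31 CPM in ANT, and erythroid markers to 1.22 to 5.85 CPM in SAS and 0.828 to 12.9 CPM in ANT. Dendritic cell markers, mostly Cd74, summed to 15.8 to 54.1 CPM in SAS and 6.79 to 23.6 CPM in ANT, with Xcr1 at 0. B cell markers summed to 127 to 188 CPM in SAS and 644 to 697 CPM in ANT, nearly all of it Ighm (150 ± 27.1 CPM in SAS, against 665 ± 21.4 CPM in ANT). CD8 T cell markers summed to 1.99 to 4.49 CPM in SAS and 14.1 to 66.8 CPM in ANT, mostly Cd8b1. Stromal markers, mostly Pecam1, which T cells also express, summed to 241 to 281 CPM in SAS and 228 to 327 CPM in ANT, with Col3a1 at 0. The low stromal markers within that sum differed. Col1a1 had 84 counts in SAS and 15 in ANT, with every SAS library above every ANT library in CPM. Pdgfrb had 52 counts in SAS, 33 of them in SAS replicate 2, and 30 in ANT. Cdh5 had 0 counts in SAS and 3 in ANT.

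Of the 10 integrin subunits, 7 were higher in SAS (Itgal, Itgb2, Itgb1, Itgae, Itga9, Itgav and Itgb8), 2 were higher in ANT (Itgb7 and Itga6) and Itga4 did not pass the test. The comparison asks how the transcripts of adhesion receptors differ between the clones. The test was edgeR's quasi-likelihood test over 12619 genes with Benjamini-Hochberg adjustment and a threshold of 0.05, in which 37.4% of all genes tested were called, 19.8% higher in SAS and 17.7% higher in ANT. All 10 members passed the filter on low counts, but Itgae, Itga9 and Itgb8 passed only through the SAS libraries, so these 3 could hardly have been tested without a difference. The median log2 fold change of the members, SAS minus ANT, was 0.66, and that of all genes tested was -0.0032. The members were chosen with earlier results of these data known, so setting them beside all genes only describes them. The groups did not overlap for 9 members, 7 with SAS above and 2 with ANT above. The same held for 38.1% of all genes tested, 20.5% with SAS above and 17.7% with ANT above. The labels do not say that each sample came from its own mouse, so the spread behind the p-values may be technical. In sorted bulk samples, fewer cells that express a gene and less RNA per cell cannot be told apart.

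**Figure D1:**
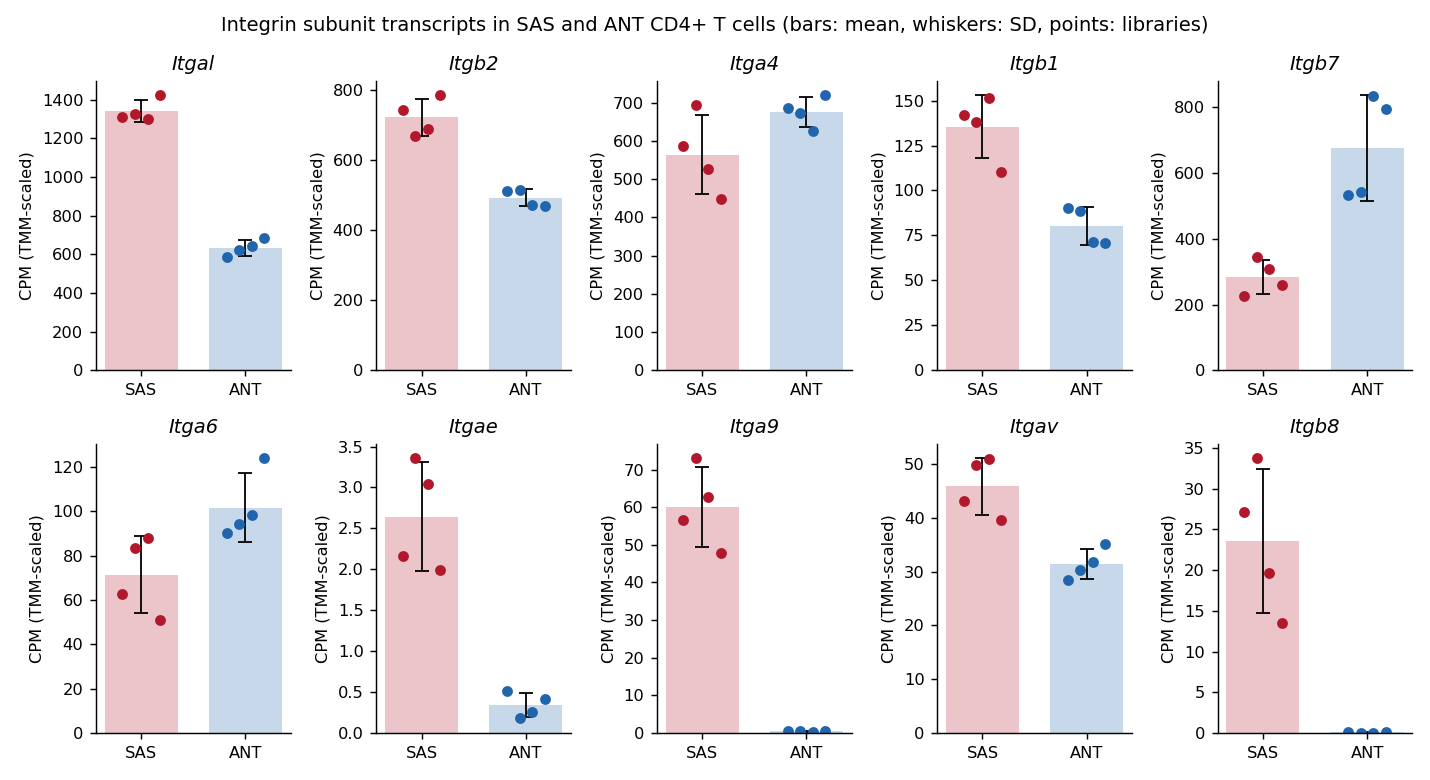
CPM (TMM-scaled, linear axes from 0) of the 10 integrin subunits, 1 panel per gene, with SAS at left and ANT at right in each. Points are libraries, bars the mean and whiskers the SD of 4 libraries. SAS and ANT points overlap only for Itga4, and the ANT points of Itga9 and Itgb8 lie at the base of the axis (means 0.397 and 0.0780 CPM).

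Both chains of LFA-1 were higher in SAS, and the alpha chain by more than the beta chain. Itgal, the LFA-1 alpha chain (ENSMUSG00000030830.18, mm10 chr7:127296260-127335138, plus strand), had 1311, 1323, 1299.8 and 1425 CPM in SAS replicates 1, 2, 3 and 6, against 584, 622, 641 and 686 CPM in ANT replicates 1, 3, 4 and 5. Every SAS library thus lay above every ANT library, and the libraries of each clone lay close together. The log2 fold change was 1.08 (SE 0.10, adjusted p = 1.73e-05 in edgeR's quasi-likelihood test), a fitted 2.11-fold difference. Itgb2, its beta chain (ENSMUSG00000000290.13, chr10:77530252-77565708, plus strand), had 741, 669, 688 and 785 CPM in SAS, against 512, 513, 471 and 469 CPM in ANT. The groups again stood apart, by a smaller step (log2 fold change 0.55, SE 0.10, adjusted p = 0.0014).

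The ratio of Itgal to Itgb2, taken within a library as counts per kilobase of exon, was 0.822, 0.919, 0.877 and 0.843 in SAS and 0.530, 0.564, 0.632 and 0.679 in ANT. The log2 ratio differed by 0.53 between the clones, with an exact two-sided permutation p of 0.0286, the smallest that this test can give with 4 libraries against 4, and 0.0321 after adjustment over the 9 ratios tested. Beta2 has other alpha chains, expressed mainly on myeloid cells. Itgal made up 99.7% ± 0.0792 of the transcripts of the 4 beta2 partners in SAS and 99.9% ± 0.0335 in ANT. Among those other chains, Itgad, the alphaD chain, was at 1.47 ± 0.628 CPM in SAS, against 0.0979 ± 0.0363 CPM in ANT (log2 fold change 3.85, adjusted p = 8.83e-05 in edgeR's quasi-likelihood test). Itgam, the alphaM chain, was at 1.42 ± 0.225 CPM in SAS, against 0.365 ± 0.203 CPM in ANT (log2 fold change 1.95, adjusted p = 0.00229). Both passed the filter on low counts only through the SAS libraries, with 11 and 41 counts in the 4 ANT libraries. Itgax, the alphaX chain, had 49 counts in the 4 SAS libraries and 2 in the 4 ANT libraries and was not tested. The myeloid marker sums given above overlap between the clones, but single markers differed. Cd68, the most abundant, was at 2.60 ± 0.424 CPM in SAS, against 4.32 ± 0.614 CPM in ANT (log2 fold change -0.73, adjusted p = 0.0153 by edgeR). Lyz2 did not pass (0.702 ± 0.502 CPM in SAS, against 0.377 ± 0.375 CPM in ANT, adjusted p = 0.332). Csf1r, too low to be tested, held 68 counts in SAS, 62 of them in SAS replicate 2, and 9 in ANT. The part of myeloid cells in the low Itgad, Itgam and Itgax values was not tested.

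Of the alpha4 integrins, the alpha chain did not pass the test, while its partner beta7 was lower and its partner beta1 higher in SAS. Itga4 (ENSMUSG00000027009.18, chr2, plus strand, at 79255426 to 79333123) had 588, 695, 527 and 448 CPM in SAS, against 686, 675, 626 and 721 CPM in ANT. SAS replicates 1, 3 and 6 lay below all ANT libraries and SAS replicate 2 lay among them (log2 fold change -0.26, SE 0.14, adjusted p = 0.158). Without SAS replicate 2 the fold change was -0.38 and passed, with an adjusted p of 0.0432. Exons of Itga4 share 1124 bases with Cerkl on the opposite strand, which held 61 to 441 counts per library where Itga4 held 13937 to 20920 counts.

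Itgb7, the beta chain of the gut-homing and CD103 integrins (ENSMUSG00000001281.9, chr15:102215995-102231944, minus strand), had 227, 344, 307 and 260 CPM in SAS, against 533, 544, 836 and 796 CPM in ANT. All SAS libraries were lower than all ANT libraries. ANT replicates 4 and 5 stood above ANT replicates 1 and 3, the same division as on the second principal component. In SAS, Itgb7 changed by a log2 fold of -1.25 (SE 0.19, adjusted p = 0.000512), a fitted level 2.38 times as high in ANT. The log2 fold change was -0.94 without ANT replicates 4 and 5 and -1.52 without ANT replicates 1 and 3, and it passed the test in both. Itgb1, the most widely paired beta chain (ENSMUSG00000025809.15, chr8:128685654-128733200, plus strand), had 142, 138, 152 and 110 CPM in SAS, against 90.2, 88.6, 71.3 and 70.5 CPM in ANT. It was higher in every SAS library, by 0.76 on the log2 scale (SE 0.13, adjusted p = 0.00121).

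The balance of the beta partners of alpha4 differed between the clones. Per kilobase of exon, Itgb7 was 2.36 to 3.66 times as abundant as Itgb1 in SAS and 8.72 to 17.3 times in ANT. The log2 ratio was 1.62 ± 0.284 in SAS and 3.62 ± 0.540 in ANT; the ratio was 3.99-fold higher in ANT (exact permutation p = 0.0286, 0.0321 adjusted over 9 ratios). Itgb1 therefore made up 24.7% ± 3.74 of the summed beta1 and beta7 transcripts in SAS and 7.85% ± 2.63 in ANT, while the sum itself was 136 ± 20.2 CPM per kilobase in SAS and 264 ± 55.6 in ANT. Against Itga4, the beta chains differed in opposite directions. The Itga4 to Itgb7 ratio was 0.340 to 0.513 in SAS and 0.148 to 0.255 in ANT (log2 difference 0.96), and the Itga4 to Itgb1 ratio was 1.02 to 1.47 in SAS and 2.22 to 2.98 in ANT (log2 difference -1.04). Each of these differences had the same exact permutation p of 0.0286 and adjusted p of 0.0321. Itgb7 and Itgb1 already stood apart in opposite directions, so the p of their ratio was fixed by that. The Itga4 ratios reuse the same genes and are no separate tests of Itgb7 or Itgb1. Ratio differences between the clones do not depend on the gene lengths used, but the ratios themselves do.

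Itgae, the gene of the alphaE chain CD103 (ENSMUSG00000005947.11, chr11, plus strand, at 73090583 to 73147446), was scarce in both clones and higher in SAS. It had 71, 96, 88 and 62 counts in SAS, which is 2.16, 3.37, 3.04 and 1.99 CPM, against 15, 5, 7 and 12 counts in ANT, or 0.517, 0.184, 0.252 and 0.414 CPM. The groups did not overlap, and the log2 fold change was 2.93 (SE 0.36, adjusted p = 0.000123). Itgae remained a small part of the alpha chains that can join beta7, at 1.41% ± 0.257 of Itga4 and Itgae together in SAS and 0.153% ± 0.0636 in ANT, per kilobase. Its ratio to Itgb7 was 0.00467 to 0.00601 in SAS and 0.000195 to 0.000606 in ANT (log2 difference 4.19, exact permutation p = 0.0286, adjusted p = 0.0321). Itgae passed the filter on low counts only through the SAS libraries, so this ratio is no separate test of its difference. CD103 is best known on CD8 T cells of epithelia. Of the 2 CD8 markers, Cd8b1 was at 2.42 ± 0.725 CPM in SAS, against 33.6 ± 21.1 CPM in ANT (log2 fold change -3.80, adjusted p = 0.000109). Cd8a was at 0.916 ± 0.531 CPM in SAS, against 2.56 ± 1.91 CPM in ANT, with overlapping libraries. It did not pass edgeR's test (log2 fold change -1.49, adjusted p = 0.0919). The part of CD8 T cells in these values was not tested.

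**Figure D2:**
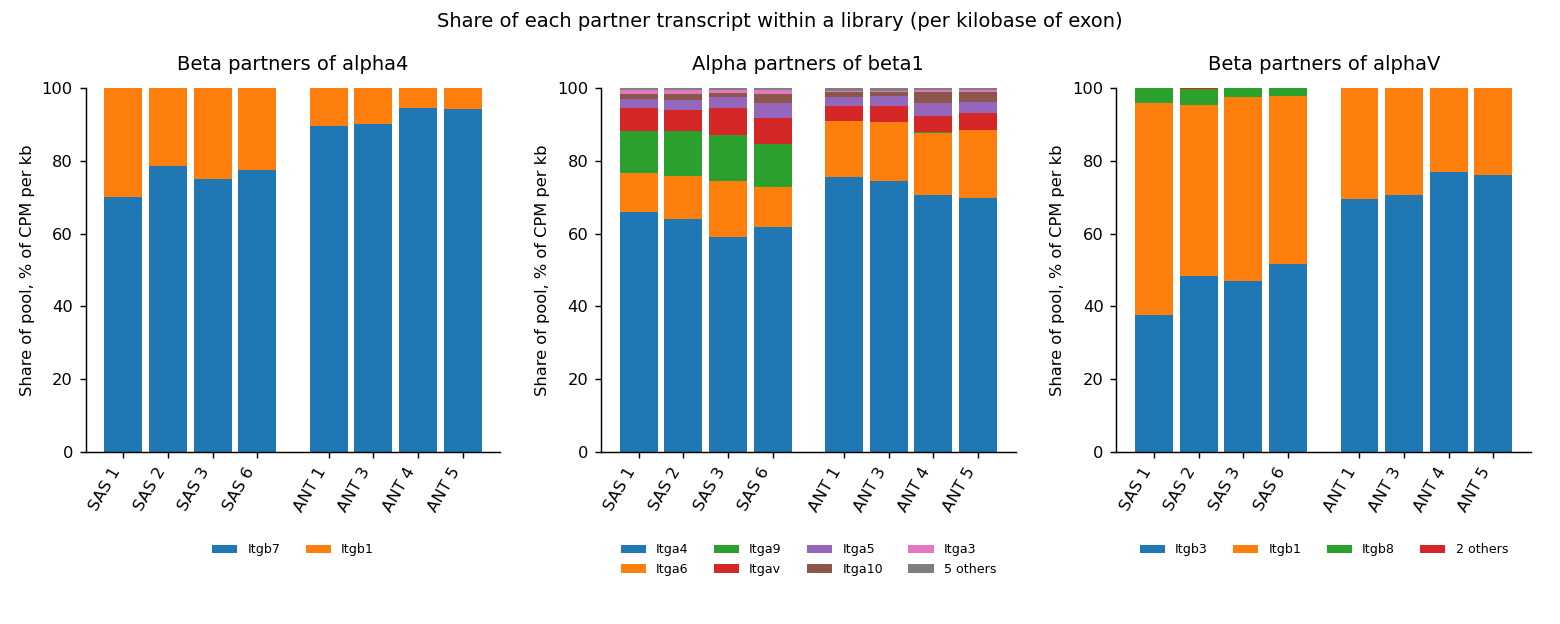
Share of each possible partner transcript in each library, in percent of CPM per kilobase of exon, for the beta partners of alpha4 (left), the alpha partners of beta1 (middle) and the beta partners of alphaV (right). SAS libraries stand left of ANT libraries in each panel. The Itgb1 share in the left panel is 21.4% to 29.8% in SAS and 5.47% to 10.3% in ANT, and the Itga9 share in the middle panel is 11.5% to 12.8% in SAS and 0.0517% to 0.0896% in ANT.

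Among the other alpha partners of beta1, Itga9 separated the clones most and Itga6 moved the other way by a small step. Itga9, a receptor chain for tenascin and other matrix proteins (ENSMUSG00000039115.13, chr9, plus strand, at 118606690 to 118901003), had 56.6, 73.2, 62.7 and 47.8 CPM in SAS, against 0.448, 0.404, 0.252 and 0.483 CPM in ANT. In counts this was 7253 in the 4 SAS libraries and 45 in the 4 ANT libraries. No ANT library came near the lowest SAS library, and the log2 fold change was 7.22 (SE 0.22, adjusted p = 1.43e-08), a fitted 149-fold difference. Itga6, the laminin receptor chain (ENSMUSG00000027111.15, chr2, plus strand, at 71745616 to 71858416), had 62.6, 83.3, 88.2 and 51.2 CPM in SAS, against 90.2, 94.4, 98.2 and 124 CPM in ANT. SAS replicate 3 and ANT replicate 1 nearly touched, and the call was narrow (log2 fold change -0.51, SE 0.18, adjusted p = 0.0446). It was lost without ANT replicates 4 or 5 (adjusted p = 0.056 and 0.0907) and without SAS replicates 1 or 6 (0.106 and 0.103). It was lost as well with scaling by library size (0.0812) and with a filter of at least 1 CPM in 4 libraries (0.0507).

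Relative to Itgb1, both chains shifted. The Itga9 to Itgb1 ratio per kilobase was 0.212 to 0.281 in SAS and 0.00201 to 0.00376 in ANT (log2 difference 6.44). The Itga6 to Itgb1 ratio was 0.199 to 0.273 in SAS and 0.452 to 0.797 in ANT (log2 difference -1.29). Both had an exact permutation p of 0.0286 and an adjusted p of 0.0321. Itga9 passed the filter on low counts only through the SAS libraries, so its ratio is no separate test of its difference. Itga6 and Itgb1 already stood apart in opposite directions, so the p of their ratio was fixed by that. Of the summed transcripts of 12 alpha partners of beta1, Itga9 made up 12.1% ± 0.523 in SAS and 0.0769% ± 0.0171 in ANT, and Itga6 12.3% ± 2.09 in SAS and 16.8% ± 1.43 in ANT. Itga4 was the most abundant of them in both clones, at 62.7% ± 2.92 in SAS and 72.6% ± 2.79 in ANT. Their sum was 64.3 ± 10.6 CPM per kilobase in SAS and 66.8 ± 4.76 in ANT, with overlapping libraries.

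Itgb8 and its alpha partner Itgav were both higher in SAS, Itgb8 with almost no counts in ANT and Itgav by a small step. Itgb8 (ENSMUSG00000025321.14, chr12:119158022-119238802, minus strand) had 891, 965, 568 and 422 counts in SAS, or 27.1, 33.8, 19.6 and 13.6 CPM, against 3, 0, 1 and 5 counts in ANT, or 0.103, 0, 0.0360 and 0.172 CPM. The SAS libraries varied among themselves, with SAS replicate 6 lowest and SAS replicate 2 highest, and all lay far above ANT. The log2 fold change was 8.13 (SE 0.50, adjusted p = 1.48e-06), and with single libraries left out it ran from 7.74 (without ANT replicate 3, which had 0 counts) to 8.81 (without ANT replicate 5, which had the most ANT counts). Itgav (ENSMUSG00000027087.11, chr2, plus strand, at 83724397 to 83806916) had 43.2, 49.7, 50.9 and 39.6 CPM in SAS, against 28.5, 30.4, 31.7 and 35.1 CPM in ANT. The groups did not overlap, with ANT replicate 5 closest to SAS replicate 6 (log2 fold change 0.54, SE 0.12, adjusted p = 0.00402). Gm13684, which shares 634 exon bases with Itgav on the opposite strand, had 0 counts in every library. Dendritic cells also express Itgb8. Of their 7 markers, Xcr1 had 0 counts, and Siglech reached at most 0.0368 CPM, Clec9a 0.0345 CPM and Flt3 0.596 CPM in any library. Zbtb46 was at 0.173 to 0.257 CPM in SAS and at 0 to 0.110 CPM in ANT, with every SAS library above every ANT library. Cd74 was at 28.6 ± 15.3 CPM in SAS, against 12.5 ± 7.02 CPM in ANT, with overlapping libraries (log2 fold change 1.19, adjusted p = 0.060), and H2-Ab1 at 1.87 ± 1.04 CPM in SAS, against 1.99 ± 0.722 CPM in ANT. The part of dendritic cells in the Itgb8 values was not tested.

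Itgav exceeded Itgb8 1.51 to 3.01 times per kilobase in SAS and 190.8 to 1702 times in ANT, where the values rest on 0 to 5 counts of Itgb8 and on the 0.5 count added to each gene. The log2 ratio differed by -7.79 (exact permutation p = 0.0286, adjusted p = 0.0321), by -7.17 without ANT replicate 3, and by -8.55 with 0.1 count added. Itgb8 passed the filter on low counts only through the SAS libraries, so this ratio is no separate test of its difference. The Itgav to Itgb1 ratio, 0.115 to 0.137 in SAS and 0.120 to 0.189 in ANT, did not pass (log2 difference -0.22, exact permutation p = 0.314, also 0.314 adjusted). The share of alphaV's beta partners changed chiefly between Itgb1 and Itgb3, the beta chain of the vitronectin receptor. Itgb3 was at 180 ± 33.5 CPM in SAS, against 319 ± 19.5 CPM in ANT (log2 fold change -0.83, adjusted p = 0.00101 in edgeR's quasi-likelihood test). Per kilobase it made up 46.2% ± 5.96 of 5 beta partners in SAS and 73.3% ± 3.70 in ANT, against 50.5% ± 5.42 and 26.6% ± 3.70 for Itgb1 in SAS and ANT, and 3.21% ± 1.12 and 0.00967% ± 0.00955 for Itgb8. These shares were not tested beyond the genes themselves. Itgb3 is also a platelet integrin chain, and the 5 platelet markers summed to 0.110 CPM or less in every library. Itga2b, its partner in platelets, was at 3.35 ± 0.858 CPM in SAS, against 5.33 ± 0.657 CPM in ANT. The part of platelets in the Itgb3 values was not tested.

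**Figure D3:**
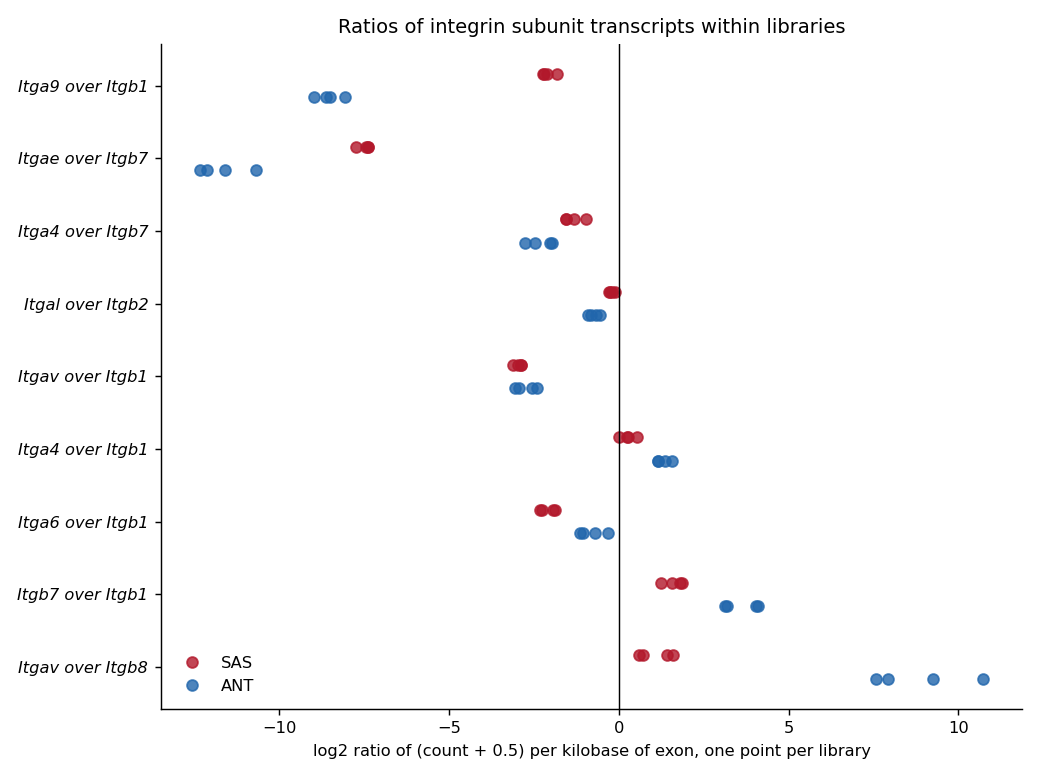
Log2 ratio of subunit pairs within each library, each gene as its count plus 0.5 per kilobase of exon, with SAS points above ANT points in each row. The clones do not overlap in 8 of 9 rows, and they overlap for Itgav over Itgb1.

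Ordered by level per kilobase of exon, the leading subunit differed between the clones. In SAS the order was Itgb2 (236 ± 17.3 CPM per kilobase), Itgal (204 ± 8.76), Itgb7 (103 ± 18.5), Itga4 (40.4 ± 7.45), Itgb1 (33.2 ± 4.33), Itga6 (7.90 ± 1.93), Itga9 (7.81 ± 1.39), Itgav (4.27 ± 0.499), Itgb8 (2.13 ± 0.799) and Itgae (0.576 ± 0.145). The ranges of neighbours overlapped for Itga4 with Itgb1 and for Itga6 with Itga9, and each other neighbour pair was apart in all libraries. In ANT the order was Itgb7 (245 ± 58.2), Itgb2 (161 ± 7.99), Itgal (96.4 ± 6.41), Itga4 (48.4 ± 2.82), Itgb1 (19.6 ± 2.62), Itga6 (11.3 ± 1.71), Itgav (2.92 ± 0.261), Itgae (0.0746 ± 0.0331), Itga9 (0.0516 ± 0.0132) and Itgb8 (0.00705 ± 0.00689). There, neighbours overlapped only for Itgae with Itga9. With the length of the longest coding transcript in place of all exons, Itgal came before Itgb2 in SAS (257 ± 11.02 and 243 ± 17.8, overlapping). Also in SAS, Itga4 then stood apart from Itgb1 (57.8 ± 10.7 and 35.5 ± 4.63) and Itga6 from Itga9 (16.5 ± 4.04 and 8.56 ± 1.52), while Itga9 overlapped Itgav. With the same length, Itga6 came before Itgb1 in ANT (23.6 ± 3.58 and 21.01 ± 2.80, overlapping).

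Of the 16 other integrin subunits, 9 passed the low-count filter, of which 3 passed as higher in SAS, 3 passed as higher in ANT and 3 did not pass, where 37.4% of all genes tested were called. Besides Itgad, Itgam and Itgb3, described above, Itga3, a laminin receptor chain, was at 3.83 ± 0.979 CPM in SAS, against 1.65 ± 0.554 CPM in ANT (log2 fold change 1.21, adjusted p = 0.00852), a call lost without ANT replicates 1 and 3 (0.0529). Itga2, a collagen receptor chain, was at 0.267 ± 0.111 CPM in SAS, against 1.20 ± 0.309 CPM in ANT (log2 fold change -2.15, adjusted p = 0.0012), and it passed the filter only through the ANT libraries. Itga2b, the platelet partner of Itgb3, was at 3.35 ± 0.858 CPM in SAS, against 5.33 ± 0.657 CPM in ANT (log2 fold change -0.67, adjusted p = 0.0292). This call did not hold with scaling by library size (0.058), without ANT replicates 4 or 5 (0.0641 and 0.0609) and without SAS replicates 1, 3 or 6 (0.0757, 0.0787 and 0.0608). Itga5, the fibronectin receptor chain, was at 9.54 ± 1.45 CPM in SAS, against 9.70 ± 1.74 CPM in ANT, Itga7 at 1.91 ± 0.613 CPM in SAS, against 1.64 ± 0.575 CPM in ANT, and Itga10 at 5.26 ± 1.31 CPM in SAS, against 7.45 ± 3.35 CPM in ANT, and none of these passed (adjusted p of 0.926, 0.657 and 0.25). Itga1, Itga8, Itga11, Itgb4, Itgb5 and Itgb6 held at most 28 counts in the 4 libraries of either clone.

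**Figure D4:**
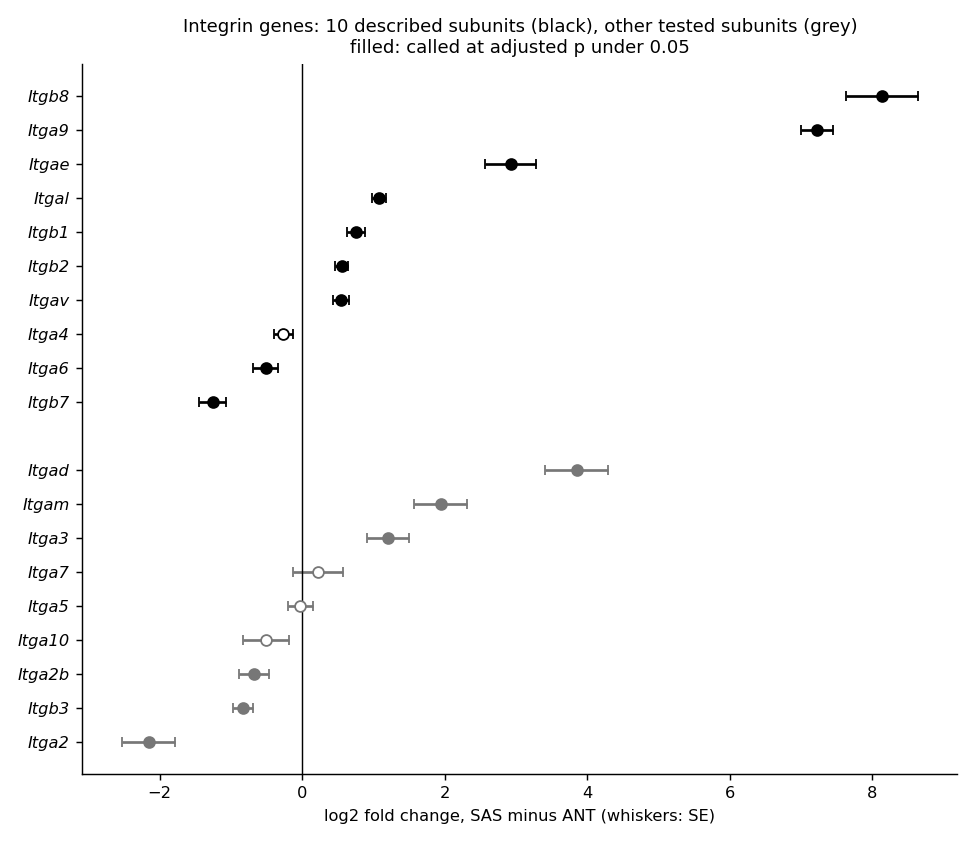
Log2 fold change, SAS minus ANT, with its SE, of the 10 described subunits (black, top) and the 9 other tested integrin subunits (grey, bottom). Filled points passed an adjusted p of 0.05. Itgb8 and Itga9 lie at 8.13 and 7.22, and the other 17 points between -2.15 and 3.85.

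The list of genes that switch integrins on, from talin, kindlin and the Rap1 pathway, had 16 of 18 members tested. Of these, 2 passed with a higher level in SAS and 7 with a higher level in ANT, with a median log2 fold change of -0.29. Among all genes tested, 19.8% were called higher in SAS and 17.7% higher in ANT. Fyb, the adaptor ADAP that links the TCR to integrins, was at 421 ± 38.3 CPM in SAS, against 673 ± 21.97 CPM in ANT (log2 fold change -0.68, adjusted p = 0.000458). Its partner Skap1 was at 216 ± 6.38 CPM in SAS, against 336 ± 47.1 CPM in ANT (log2 fold change -0.64, adjusted p = 0.00137). Of the exchange factors that load Rap1 with GTP, Rasgrp2 and Rapgef6 were lower in SAS, with log2 fold changes of -0.78 and -0.74 (adjusted p = 0.00176 and 0.00118). Rapgef1 was higher, with a log2 fold change of 0.52 (adjusted p = 0.0479). That last call was lost without ANT replicates 1 or 3 (0.108 and 0.11) and without SAS replicates 2, 3 or 6 (0.128, 0.115 and 0.0739). Rap1a was at 229 ± 29.4 CPM in SAS, against 138 ± 14.6 CPM in ANT (log2 fold change 0.73, adjusted p = 0.000952). Its near copy Rap1b, named after its values were seen, was at 397 ± 40.8 CPM in SAS, against 545 ± 26.4 CPM in ANT (log2 fold change -0.46, adjusted p = 0.00602). Talin itself, Tln1, did not pass (1070.45 ± 167 CPM in SAS, against 948 ± 199.6 CPM in ANT, adjusted p = 0.456), and nor did the kindlin gene Fermt3 (246 ± 17.5 CPM in SAS, against 272 ± 36.9 CPM in ANT, adjusted p = 0.355).

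Of 10 tested genes whose products hold integrins or Rap1 off, 1 was higher in SAS, 2 were higher in ANT and 7 were not called (median log2 fold change 0.14), where 37.4% of all genes tested were called. Rasa3, a GTPase-activating protein for Rap1 and Ras, was at 385 ± 22.2 CPM in SAS, against 638 ± 47.3 CPM in ANT (log2 fold change -0.73, adjusted p = 0.000248). Filamin A, Flna, which competes with talin for beta tails, was lower in SAS by a log2 fold change of -0.51 (adjusted p = 0.0123). Rap1gap2 was at 5.12 ± 2.50 CPM in SAS, against 1.80 ± 0.860 CPM in ANT (log2 fold change 1.502, adjusted p = 0.0183). It was at 0.99 without ANT replicates 4 and 5, where the call was lost (0.0775), and at 2.23 without ANT replicates 1 and 3. In the adhesion complex list, 16 of 19 genes were tested, with 0 called higher in SAS and 4 called higher in ANT by edgeR (median 0.088), beside 19.8% and 17.7% of all genes tested. At an unadjusted p under 0.05, 2 were higher in SAS (Git1 and Ptk2b), and DESeq2 and limma-voom each called 1 (Git1). Without ANT replicates 4 and 5 the number higher in SAS was 5. The 4 higher in ANT were Actn1, an actin crosslinker (log2 fold change -0.72, adjusted p = 0.000857), the docking protein gene Nedd9 (-0.64, 0.00127), the focal adhesion kinase gene Ptk2 (-0.98, 0.00325) and Ilk (-0.43, 0.00203).

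Of 9 tested membrane partners of integrins, edgeR called 0 higher in SAS and 3 higher in ANT (median -0.020), as did DESeq2 and limma-voom. With 37.4% of all genes called by edgeR, 3 of 9 is near the background. At an unadjusted p under 0.05, 1 was higher in SAS (Slc3a2). Cd47, a partner of several integrins, was at 160 ± 23.8 CPM in SAS, against 349 ± 63.4 CPM in ANT (log2 fold change -1.13, adjusted p = 0.000251). The tetraspanin genes Tspan32 and Cd53 had log2 fold changes of -0.68 and -0.56 (adjusted p = 0.000424 and 0.00805). Among 18 ligand genes, 5 passed the low-count filter, 3 higher in SAS (Tgfb1, Tgfb3 and Emilin1) and 2 higher in ANT (median 0.44), beside 19.8% and 17.7% of all genes tested. Tgfb3 was at 3.16 ± 1.17 CPM in SAS, against 1.07 ± 0.588 CPM in ANT (log2 fold change 1.56, adjusted p = 0.0118). It was at 1.10 without ANT replicates 4 and 5, where the call was lost (0.0555), and at 2.18 without ANT replicates 1 and 3. Emilin1, a matrix protein that alpha4 and alpha9 integrins bind, was at 15.2 ± 0.122 CPM in SAS, against 11.2 ± 1.06 CPM in ANT (log2 fold change 0.44, adjusted p = 0.0121), a call lost without ANT replicates 1 and 3 (0.060). The LFA-1 ligands Icam1 and Icam2, which T cells also carry, were both lower in SAS while the LFA-1 transcripts were higher. Icam1 was at 29.5 ± 5.17 CPM in SAS, against 51.1 ± 11.7 CPM in ANT (log2 fold change -0.79, adjusted p = 0.00686), and Icam2 at 40.4 ± 3.27 CPM in SAS, against 75.9 ± 9.49 CPM in ANT (log2 fold change -0.91, adjusted p = 0.000154). Vcam1, Madcam1 and Cdh1, the ligands of the alpha4 and CD103 integrins, are known from other cells and reached at most 0.441 CPM in any library. Of the ligand genes too low to be tested, Spp1 had 166 counts in SAS, 118 of them in SAS replicate 2, and 1 in ANT. The tenascin gene Tnc had 20 counts in SAS, 12 of them in SAS replicate 2, and 0 in ANT. Cdh1 went the other way, with 11 counts in SAS and 38 in ANT.

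Genes around latent TGF-beta, the ligand that the alphaV-beta8 dimer acts on, were called in both directions, 4 higher in SAS and 4 higher in ANT of 11 tested (median -0.10), beside 19.8% and 17.7% of all genes tested. Tgfb1, also counted among the ligands above, was at 189.5 ± 59.4 CPM in SAS, against 79.0 ± 33.5 CPM in ANT (log2 fold change 1.26, adjusted p = 0.00989). ANT replicates 4 and 5 (105 and 111 CPM) stood above ANT replicates 1 and 3 (50.1 and 49.98 CPM). The log2 fold change was 1.90 without ANT replicates 4 and 5, and 0.81 without ANT replicates 1 and 3, where the call was lost (0.0732). Lrrc32, which encodes the GARP protein that tethers latent TGF-beta, was named after its values were seen. It had 309 counts in SAS and 6 in ANT, or 2.59 ± 1.21 CPM in SAS, against 0.0527 ± 0.0338 CPM in ANT (log2 fold change 5.50, adjusted p = 2.68e-05). It passed the filter on low counts only through the SAS libraries, so it could hardly have been tested without a difference. Nrros, a related tether, was at 94.4 ± 6.64 CPM in SAS, against 134 ± 14.4 CPM in ANT (log2 fold change -0.50, adjusted p = 0.00369). Of the response genes, Tgfbr2, Smad4 and the inhibitor Smad7 had log2 fold changes of -0.68, -0.44 and -1.12 (adjusted p = 0.00255, 0.00429 and 0.0045). Tgfbr1 and Furin, the protease that matures TGF-beta, were higher in SAS by 0.30 and 0.54 on the log2 scale (adjusted p = 0.0237 and 0.0409). The Furin call was lost without ANT replicates 1 or 3 (0.0889 and 0.0896) and without any 1 of the SAS replicates (0.0533 to 0.0972). The Tgfbr1 call was lost without ANT replicates 3 or 4 (0.0811 and 0.0614) and without SAS replicates 1 or 3 (0.0622 and 0.0525).

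**Figure D5:**
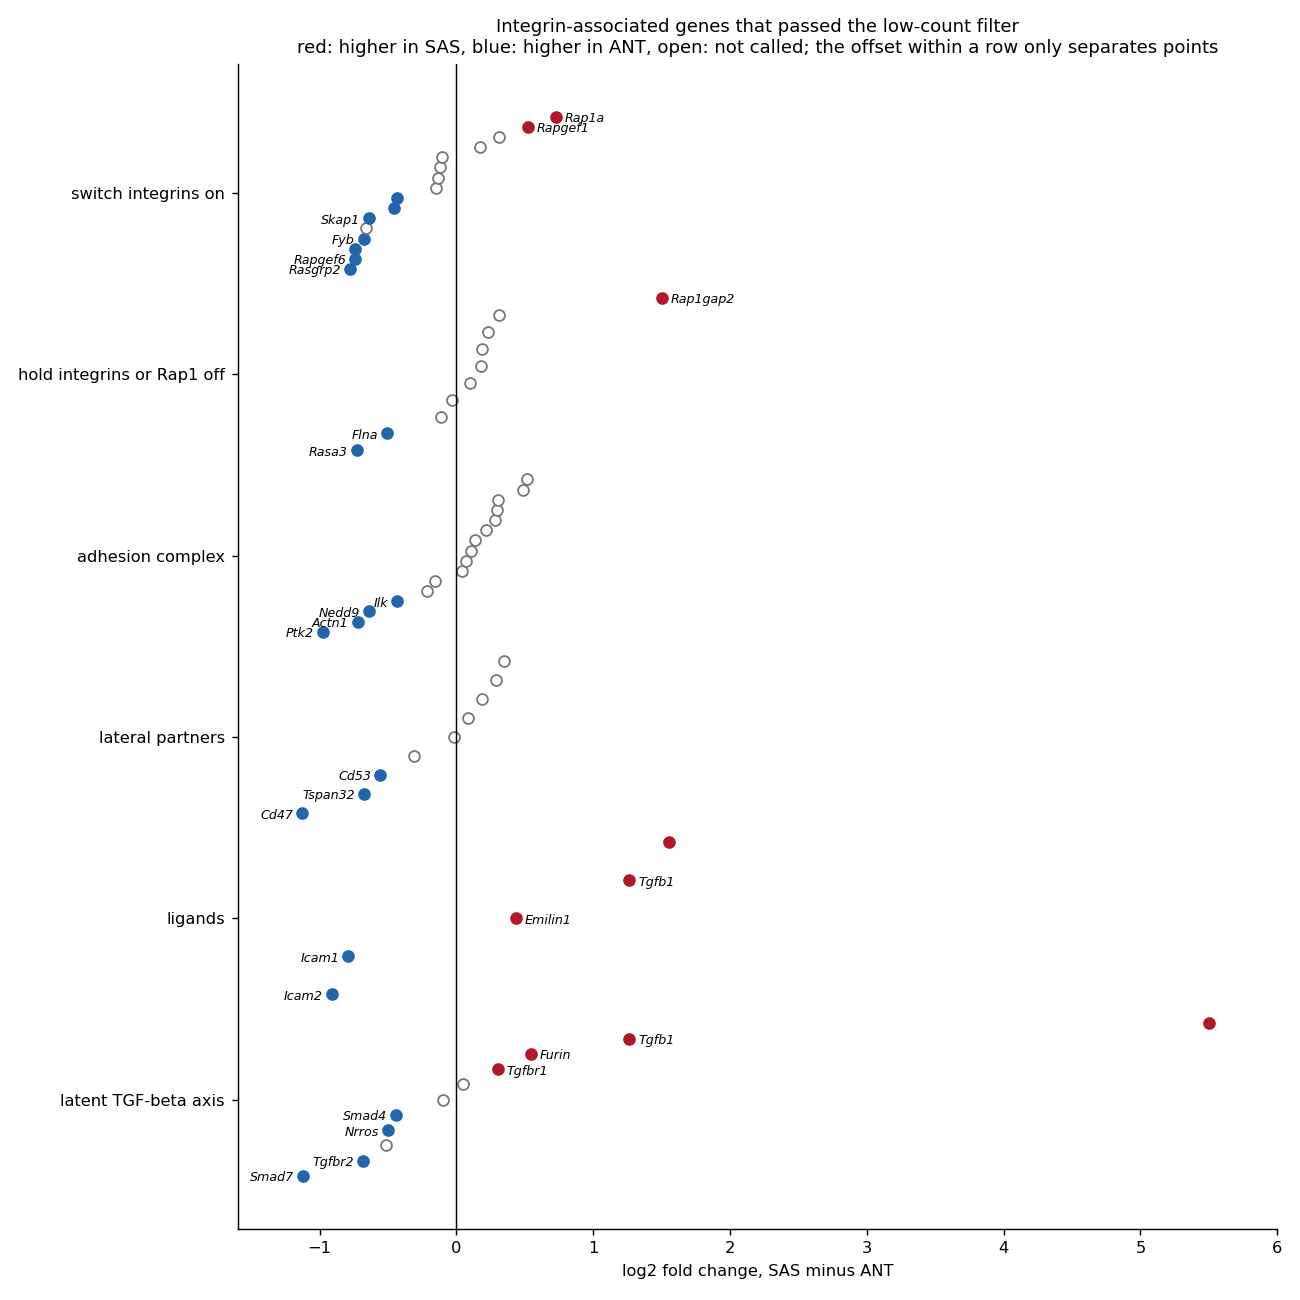
Log2 fold change, SAS minus ANT, of each tested gene in 6 lists around integrin function, 1 row per list. Red points were higher in SAS, blue points higher in ANT and open points not called at an adjusted p of 0.05, and the height within a row only separates points. In the top row 7 points are blue and 2 red, and the point farthest right, in the bottom row, is Lrrc32 at 5.50.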

How the data were processed

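The authors deposited whole-number raw counts for 39056 genes and 8 libraries. The submitters' processing notes name STAR, featureCounts and mm10, and the libraries were strand-specific TruSeq mRNA, per the labels' protocols. Versions, annotation release, strand setting and the handling of reads that map to several places are not given in the sources used here, so overlaps on the opposite strand are uncertain. IDs were matched without version to GENCODE M21 (38872 matched, 184 did not).

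edgeR 4.0.16 in R 4.3.3 kept 12619 genes by its default filter, applied TMM scaling and a robust quasi-likelihood fit of SAS against ANT over all libraries with no covariates. Log2 fold changes are SAS minus ANT, and the SE is their size over the square root of F. Values per kilobase divide CPM by the union of a gene's exons. Subunit ratios had 0.5 count added to each gene and an exact permutation test. The fit was tested on simulated counts. Alternatives were other scalings and filters, DESeq2 1.42.0, limma-voom (limma 3.58.1), a stricter threshold, a replicate block, another offset and left-out libraries. Lists without ANT replicates 4 and 5 or 1 and 3, and other gene lengths, were added after seeing the data. Totals of 27600959 to 31810799 counts set the counting precision.

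The members and gene lists were chosen with earlier results of these data known. Named are all members, all other integrins tested, up to 4 called genes per list and direction with the smallest p and at least 5 CPM in the higher clone, and up to 2 abundant markers per cell type. Other genes, such as Tln1, Fermt3, Rap1b, Lrrc32 and further ligands and markers, were chosen after their values were seen.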

Additional observations from a re-analysis of the deposited data

Results flagged for a closer look

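The ratio of Itgae to Itgb7 in SAS replicate 6 stood apart from the other SAS libraries. Its log2 ratio per kilobase was -7.74, against -7.43 to -7.38 in the other SAS libraries, a gap of 0.857 of the whole range of the 4 values, above the 95% limit of Dixon's test. All SAS libraries, this one included, remained above every ANT library (-12.3 to -10.7). Of 38 sets of 4 values examined in this way it was the 1 that stood out, and chance alone gives about 1 in 20.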

How the results depend on the processing

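The number of members higher in SAS was 7 under all 19 alternatives, and Itgal, Itgb2, Itgb1, Itgb7, Itgae, Itga9, Itgav and Itgb8 kept their direction and call in each. For the replicate block among them, this rests on replicates 1 and 3 alone, as described below. The number higher in ANT was 2, and 1 with library size only, at least 1 CPM in 4 libraries, an adjusted p under 0.01, without ANT replicates 4 and 5, or with the replicate block; it ran from 1 to 3 with single libraries left out. Itga6 is the member that lost its call in each case of 1, and the cause was not tested. The clones share only replicate numbers 1 and 3, whose deviations correlated at 0.47 and -0.22. The numbers were therefore not taken to pair the libraries. In a block by replicate number, each other number occurs in a single library. The blocked fold changes thus rest on replicates 1 and 3 of each clone alone. Little is left to measure the spread, so the blocked calls and p-values carry little weight. With that replicate block 5798 of 12619 genes were called, against 4725 without, and Itga6 (-0.31, adjusted p 0.0536), Icam1 (-0.30, 0.0728), Nrros (-0.30, 0.0527) and Cyth1 (-0.25, 0.146) lost their calls by edgeR. Members' blocked log2 fold changes were 1.11 (Itgal), 0.48 (Itgb2), -0.29 (Itga4), 0.71 (Itgb1), -1.03 (Itgb7), 2.87 (Itgae), 7.11 (Itga9), 0.67 (Itgav) and 8.69 (Itgb8). The direction and call of each of the 9 ratios held under every alternative with a test. Where the clones did not overlap, leaving out a library could not undo the separation. The permutation p then stayed at its smallest value, so those calls could not have been lost that way. Library size only moved the median of all genes to 0.094 and the share of calls higher in SAS to 64.8%, against 52.8%. List counts higher in SAS moved as follows. With library size only, adhesion complex genes were 1 and membrane partners 2. Without ANT replicates 4 and 5, genes that hold integrins off were 2, adhesion complex genes 5 and membrane partners 1. Without ANT replicates 1 and 3, adhesion complex genes were 1, ligands 1 and latent TGF-beta genes 1. With single libraries left out, the ranges were 1 to 2 (genes that switch integrins on), 1 to 2 (genes that hold them off), 0 to 2 (adhesion complex), 0 to 1 (membrane partners), 3 to 3 (ligands) and 2 to 4 (latent TGF-beta). Genes that were not called changed sign: Itga5 to 0.074 with library size only, 0.19 without ANT replicates 4 and 5 and -0.12 to 0.078 with single libraries left out; Itga7 to -0.016 without ANT replicates 4 and 5 and -0.014 to 0.41 with single libraries left out; Itga10 to 0.18 without ANT replicates 4 and 5; Cd4 to 0.050 with library size only; and Cd3e to 0.075 with library size only and 0.030 without ANT replicates 4 and 5. Without ANT replicates 1 and 3, Itga10 was called (-0.98, adjusted p 0.00965, against -0.50 and 0.25). Depth limits Itgb8 in ANT (9 counts), Itgae in ANT (39) and Itga9 in ANT (45), and their fold changes depend on these few counts.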
